A study of Mus musculus with 2 samples.

Results

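The 10 genes described here belong to the Notch and arterial identity program of the endothelium, namely Notch1, Notch4, Dll4, Jag1, Hey1, Hes1, Sox17, Sox18, Efnb2 and Gja5. They were taken by symbol from the 31053 gene rows of the deposited matrices, and all 10 were found. Notch signalling passes between touching cells. A ligand of the Delta-like or Jagged family on one cell binds a Notch receptor on its neighbour, the receptor is cut, and its intracellular part enters the nucleus and switches on HEY and HES repressors. In the endothelium high Notch activity, together with SOXF transcription factors, marks arteries and restrains sprouting, while ephrin-B2 and the connexin of Gja5 are classical arterial products.

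The libraries came from single lung cells of NG2tdT mice, which carry NG2-CreERTM and the Ai14 tdTomato reporter. In these mice tamoxifen marks cells with an active NG2 (Cspg4) promoter, which is used by pericytes and some smooth muscle cells and, as a rule, not by endothelium. Both groups carried both alleles and received tamoxifen at 2 mg per 30 g body weight, with 7 days of rest before exposure. The Normoxia group was otherwise untreated and the Hypoxia group was kept at an inspired oxygen fraction of 10% for 21 days. By the general methods of the study the mice were males aged 2 to 4 months. Each group had 1 library, so there was no replicate spread and no test, and each difference below is a difference between these 2 libraries. The labels mention 3 replicates per group, but 1 matrix per group was analysed here and whether it pools animals is not stated.

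The libraries held 373 and 613 barcodes with 1323874 and 1989423 unique molecular identifiers (UMIs, each counting 1 captured transcript). After filtering, 293 Normoxia and 453 Hypoxia cells were retained. Although the labels describe sorted tdTomato cells, Cspg4 was detected in 1 Normoxia and 2 Hypoxia cells, and endothelial cell-like clusters formed the largest class in both libraries. These clusters, numbered 1, 4, 8 and 9, held 113 Normoxia cells with 344044 UMIs and 212 Hypoxia cells with 745499 UMIs, and the median cell had 2636 and 2828.5 UMIs (mean of the middle values in the latter). They were named from 12 endothelial markers such as Pecam1, Cdh5 and Tie1, none of them a member, and all 12 were detected in each cluster and library. Clusters 1 and 4 carried general capillary markers, and cluster 8 carried the markers of aerocytes, the large capillary cells of gas exchange. Cluster 9 was led by Scgb1a1, Vwf and Tpm1 and had both arterial and venous markers.

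Cluster 9 stood apart from the rest of the class. Of its cells, 8 of 19 from Normoxia and 12 of 18 from Hypoxia had at least 4 endothelial markers with no UMI of Ptprc, Epcam or Col1a2. Its summed endothelial markers stood at 3667 and 6764 CPM (UMIs scaled to a total of 1000000) in Normoxia and Hypoxia, against 16444 to 28534 in clusters 1, 4 and 8. The summed markers of club or ciliated airway cells, Scgb1a1 among them, reached 77581 and 156395 CPM in cluster 9, and those of alveolar type 2 cells 24298 and 5357 CPM. It also held 506 of the 534 fibroblast marker UMIs of the Normoxia endothelial cell-like cells, against 25 of 41 in Hypoxia. Pericyte markers summed to 34.9 and 12.1 CPM over the whole class. The part of these other transcripts in the cluster 9 values was not tested, and the members' values without the cluster are given beside those with it. The barcodes of 2 cells occurred in both libraries, of which 1 Hypoxia cell was endothelial cell-like.

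Of the 10 members, 9 had at least 20 UMIs over both libraries in endothelial cell-like cells, and Gja5 did not. Levels are given as CPM with 95% intervals that cover counting error only, and a gene was counted as higher or lower when its CPM differed by at least 1.5-fold. By this measure 1 member was higher in the Hypoxia library, Sox17, and 1 was lower, Dll4. Among all 6741 genes with at least 20 UMIs, 15.9% were higher and 13.5% were lower. The shares among the members therefore lie near those of all genes, and their median log2 ratio of Hypoxia over Normoxia was 0.08 against 0.03 over all genes. The CPM of the class are scaled to all its UMIs, so ratios with and without cluster 9 rest on different totals. Cluster 9 held 19 of the 113 Normoxia cells and 18 of the 212 Hypoxia cells, a larger part of the Normoxia class. Sox17 had 77 and 275 UMIs in the class and 72 and 259 without cluster 9. Its level went from 224 to 284 CPM in Normoxia and from 369 to 399 CPM in Hypoxia, mostly through the change of totals. Without cluster 9, 1 member was higher (Jag1) and 3 were lower (Dll4, Hey1 and Sox18), beside 15.1% and 14.5% of 6112 genes. The median of the members was then -0.28 and that of all genes -0.01.

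**Figure D1:**
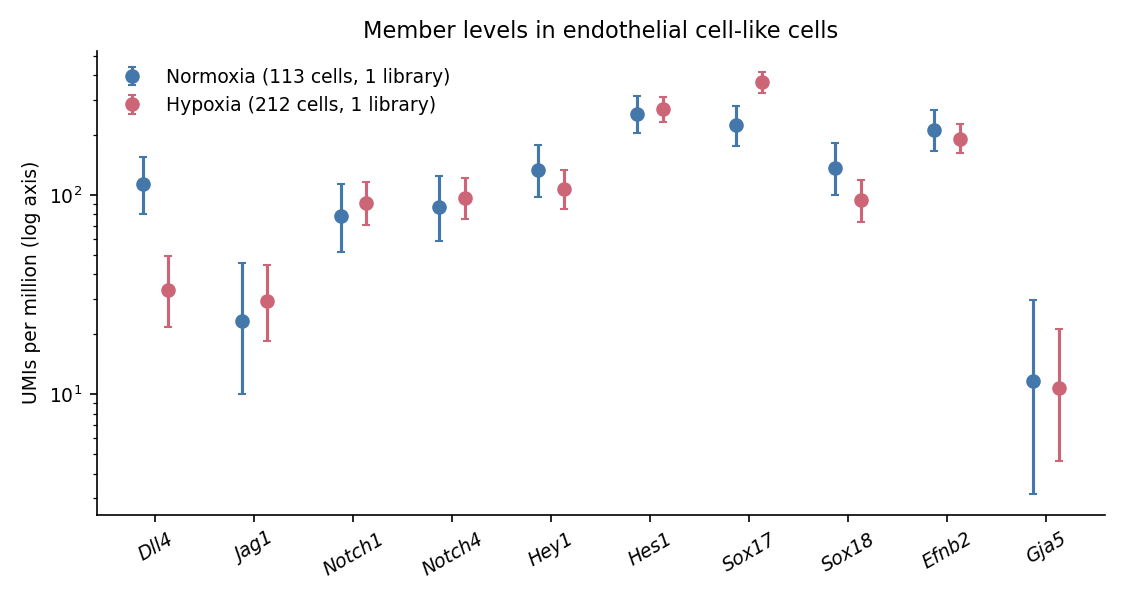
Level of each member in endothelial cell-like cells, in CPM on a log axis, for the Normoxia (blue) and Hypoxia (red) libraries, with 95% Poisson intervals as bars. The intervals of Dll4 and of Sox17 do not overlap between the libraries, with Dll4 at 113 and 33.5 and Sox17 at 224 and 369.

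Of the 10 members the ligand Dll4 had the widest difference. Dll4 encodes Delta-like 4, the main endothelial Notch ligand, which restrains tip cells during sprouting. The gene lies on the plus strand of chromosome 2 from 119325784 to 119335962 (GRCm38, the assembly called mm10). Jag1 encodes Jagged 1, a ligand shared by endothelium, smooth muscle and stroma, and lies on the minus strand of chromosome 2 from 137081456 to 137116644. The 250 bases before the start sites of both ligands, and of the Notch feedback gene Nrarp described further on, are shown. These windows were chosen because Dll4 and Nrarp were lower in the Hypoxia library, while the Jag1 difference lay within counting error. They are RefSeq sequences on GRCm38.p6, read 5′ to 3′ on the strand of the gene. Capitals mark the core of the hypoxia response element, searched as ACGTG and GCGTG on both strands. In Nrarp the matches overlap, because CACGTG reads the same on either strand.

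Dll4, chr2:119325534-119325783, plus strand: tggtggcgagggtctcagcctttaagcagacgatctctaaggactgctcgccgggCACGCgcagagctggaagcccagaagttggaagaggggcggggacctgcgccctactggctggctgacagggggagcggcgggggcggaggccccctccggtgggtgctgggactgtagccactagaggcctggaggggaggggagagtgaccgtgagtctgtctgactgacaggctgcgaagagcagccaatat
Jag1, chr2:137116521-137116770, minus strand: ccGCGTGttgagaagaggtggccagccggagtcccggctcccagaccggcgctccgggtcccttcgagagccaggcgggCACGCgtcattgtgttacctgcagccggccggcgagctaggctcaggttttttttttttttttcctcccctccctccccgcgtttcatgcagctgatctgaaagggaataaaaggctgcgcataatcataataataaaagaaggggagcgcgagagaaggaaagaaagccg
Nrarp, chr2:25180508-25180757, plus strand: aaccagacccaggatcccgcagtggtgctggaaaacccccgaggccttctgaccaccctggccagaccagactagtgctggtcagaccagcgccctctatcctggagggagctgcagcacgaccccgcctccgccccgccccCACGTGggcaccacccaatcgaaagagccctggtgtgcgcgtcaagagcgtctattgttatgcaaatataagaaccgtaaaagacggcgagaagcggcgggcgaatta

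Distances refer to the RefSeq start, which for Jag1 lies inside the gene as given above, so that part of its window overlaps the annotated gene. The match of Dll4 begins 195 bases before the start site, those of Jag1 248 and 171 bases before it, and those of Nrarp 108 and 107 bases before it. A match was thus found in each window, and a link between matches and levels was not tested. Promoters of 6 members were in the RefSeq table used (Notch1, Notch4, Dll4, Jag1, Efnb2 and Gja5), each spanning 250 bases before to 50 after the start. GCGTG was found in 4 of the 6 (Notch1, Notch4, Dll4 and Jag1) and in 32.4% of all 32851 promoters, and ACGTG in 0 of the 6 and 19.6% of all. GTGGGAA, a form of the site of RBPJ, the DNA-binding partner of cleaved Notch, was found in 0 of the 6 and 6.38% of all. ACAAT, the core recognised by SOX factors, was found in Notch4 and Jag1 and in 31.0% of all. These matches describe letters in a window and do not show binding.

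Dll4 had 39 UMIs in the Normoxia and 25 in the Hypoxia endothelial cell-like cells, although the latter held more cells and more UMIs. Its level was 113 CPM (interval 80.6 to 155) in Normoxia and 33.5 CPM (21.7 to 49.5) in Hypoxia, 3.38-fold lower in the Hypoxia library (log2 ratio -1.76, interval -2.54 to -0.996). Without cluster 9 the log2 ratio was -2.21. Dll4 was therefore the member whose levels lay farthest apart, and its intervals did not overlap.

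The share of cells with Dll4 was lower as well. Most cells with Dll4 held 1 UMI of it (20 of 28 in Normoxia, 13 of 19 in Hypoxia). The share and the level are therefore not separate measures. Dll4 was detected in 28 of the 113 Normoxia cells (24.8%) but 19 of the 212 from Hypoxia (8.96%). Each cell was then thinned at random to 1000 UMIs, so that depth was equal, with 5 Normoxia and 8 Hypoxia cells left out as shallower. In the draw used here the shares were 13.9% (15 of 108 cells, exact interval 7.99% to 21.9%) and 3.92% (8 of 204 cells, 1.71% to 7.58%), a difference of -9.97 percentage points (-18.0 to -3.56). Over all possible draws the expected shares were 11.8% and 3.34%, a difference of -8.45 points. A draw at 500 UMIs gave a difference of only -0.65 points where -3.98 was expected, so single draws at that depth are unstable. In T, NK and B cell-like cells, which should lack Dll4, it was found in 0 of 44 and 0 of 129 thinned cells, which allows shares of up to 6.82% and 2.33%. The exact upper limits of these shares were 8.04% and 2.82%, above the lower bounds of the endothelial intervals, so the intervals overlap in both libraries. Those cells had medians of 3889 and 2475 UMIs.

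The lower Dll4 level was seen in each of the 3 capillary clusters. In cluster 1, 9 UMIs in 39 Normoxia cells stood against 12 in 135 Hypoxia cells (102 and 27.4 CPM, log2 ratio -1.90, interval -3.27 to -0.47). In cluster 4 it was 15 in 36 cells against 6 in 39 cells (141 and 46.8 CPM, log2 ratio -1.59, -3.25 to -0.15). The aerocyte-like cluster 8 had the highest Dll4 level of Normoxia, with 14 UMIs in 19 cells against 3 in 20 cells (236 and 36.3 CPM, log2 ratio -2.70, -5.14 to -0.86). In cluster 9, with 1 and 4 UMIs, the log2 ratio was 1.90 with an interval from -1.44 to 7.52. The sign in clusters 1, 4 and 8 was thus the same. In cluster 9 the ratio lay on the other side, from too few Dll4 UMIs to give a sign.

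Jag1 had 8 Normoxia and 22 Hypoxia UMIs, or 23.3 CPM (10.0 to 45.8) and 29.5 CPM (18.5 to 44.7). The log2 ratio was 0.34 with an interval from -0.88 to 1.72, so a difference of either sign was within counting error. Without cluster 9 it was 0.65 (-0.81 to 2.42) from 5 and 20 UMIs, past 1.5-fold but with 0 inside the interval. Only 44.4% of the Normoxia Jag1 UMIs of retained cells were endothelial, against 78.6% in Hypoxia, and fibroblast-like cells held 5 and 1.

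Of the other Notch ligands and receptors, Dll1 and Jag2 reached 20 UMIs in endothelial cell-like cells, while Notch2, Notch3, Dll3, Dlk1, Dlk2 and Dner did not. Dll1, another Delta-like ligand, had 24 and 55 UMIs (69.8 and 73.8 CPM). Jag2, a second Jagged ligand, had 11 and 50 UMIs (32.0 and 67.1 CPM), a log2 ratio of 1.07 (0.11 to 2.16) that became 0.90 without cluster 9, with an interval that includes 0. Counted within this family, which needs no scaling to the library, Dll4 made up 47.6% of the 82 Normoxia UMIs of Dll1, Dll4, Jag1 and Jag2 (36.4% to 58.9%). In Hypoxia it made up 16.4% of 152 (10.9% to 23.3%). The Dll4 share of cluster 1 was 37.5% and 13.8%, that of cluster 4 was 48.4% and 15.8%, that of cluster 8 was 82.4% and 27.3%, and that of cluster 9 was 10.0% of 10 UMIs and 25% of 16. This family share, like the others given here, was chosen after the levels had been seen.

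**Figure D2:**
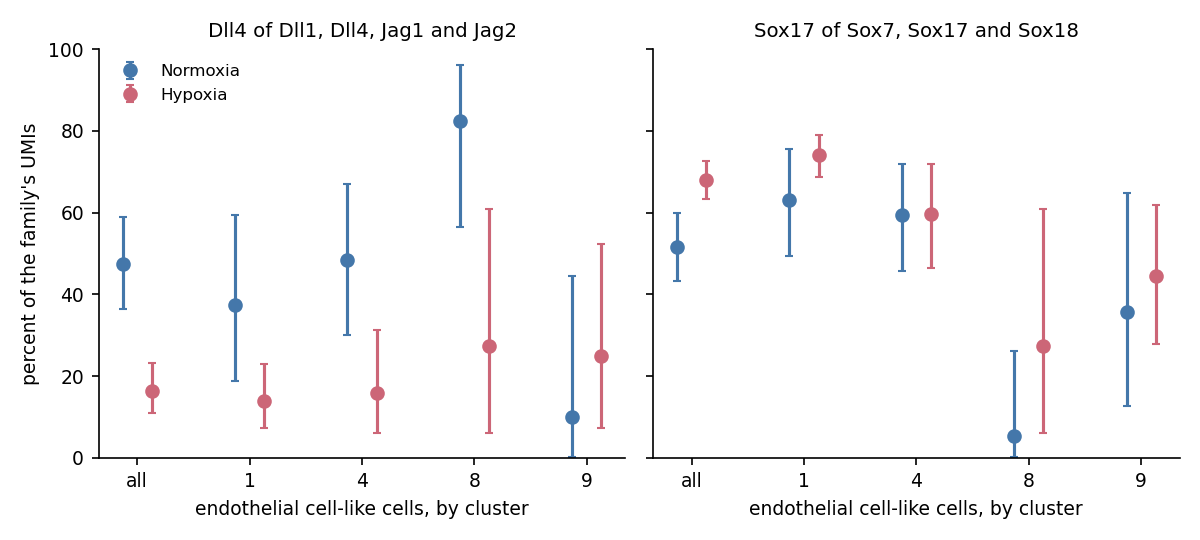
Percent of the UMIs of 4 Notch ligands that were Dll4 (left) and of 3 SOXF genes that were Sox17 (right), in all endothelial cell-like cells and in clusters 1, 4, 8 and 9, with exact 95% intervals as bars. The Dll4 share is 47.6% in Normoxia (blue) and 16.4% in Hypoxia (red) over all cells and is lower in Hypoxia in clusters 1, 4 and 8, while the Sox17 share in cluster 4 is 59.3% and 59.7%.

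Neither receptor differed beyond counting error. Notch1, the receptor of most endothelial and T cell Notch signalling (chromosome 2, 26457903 to 26516663, minus strand), had 27 and 68 UMIs, or 78.5 CPM (51.7 to 114) in Normoxia and 91.2 CPM (70.8 to 116) in Hypoxia. Notch4, whose expression is largely endothelial (chromosome 17, 34564268 to 34588503, plus strand), had 30 and 72 UMIs, or 87.2 CPM (58.8 to 124) and 96.6 CPM (75.6 to 122). The log2 ratios were 0.22 (-0.45 to 0.92) and 0.15 (-0.49 to 0.81), and the intervals leave room for a change of 1.5-fold upwards in both. Without cluster 9 the ratio of Notch1 was -0.03 (-0.74 to 0.72) and that of Notch4 was -0.10 (-0.75 to 0.60). Both receptors were close to level with each other too, Notch1 making up 47.4% of their 57 Normoxia UMIs and 48.6% of their 140 Hypoxia UMIs.

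The expected shares of cells with a UMI after thinning to 1000 UMIs were also close, at 9.70% and 9.55% for Notch1 and 9.63% and 9.26% for Notch4. In the draw used here Notch1 stood at 5.56% and 10.3%, a gap not seen in the expected shares. Before thinning the shares were 22.1% and 25% for Notch1 and 21.2% and 24.1% for Notch4. Most Notch4 lay in the endothelial class, which held 90.9% of its Normoxia and 98.6% of its Hypoxia UMIs. Notch1 was less so, at 75.0% and 73.9%, and 10 Hypoxia T or NK cell-like cells each carried a Notch1 UMI. The receptors were thus both detected in clusters 1, 4, 8 and 9 of both libraries.

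The machinery that cuts and tunes the receptor was described by a list of 25 genes, of which 18 reached 20 UMIs. Of these, 5 were higher and 4 lower in the Hypoxia library, with a median log2 ratio of 0.07. Those whose interval left out 0 were Mib1, the ubiquitin ligase that lets ligands be endocytosed and so pull on the receptor, and Numb, an inhibitor of Notch. Mib1 had 3 and 26 UMIs (log2 ratio 2.00, 0.29 to 4.37), and Numb had 31 and 106 (0.66, 0.07 to 1.29). Without cluster 9 Numb had 28 and 101 UMIs (0.50, -0.12 to 1.16), under 1.5-fold with 0 inside the interval, and Mib1 had 1 and 25 (3.29, 0.68 to 8.65). The counts of this list were then 1 higher and 1 lower of 16. The fringe glycosyltransferase genes Lfng and Mfng, which shift receptors towards Delta-like ligands, had log2 ratios of -0.12 and 0.06.

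Of the 14 genes found of the nuclear complex, 11 reached 20 UMIs, 3 higher and 3 lower. Rbpj, the DNA-binding partner of Notch, had 16 and 24 UMIs (log2 ratio -0.53, -1.50 to 0.48). Tle1, a corepressor that HES proteins recruit, had 35 and 37 UMIs, or 102 and 49.6 CPM (log2 ratio -1.04, -1.74 to -0.33). Snw1, a splicing and transcription cofactor, was also lower (45 and 60 UMIs, log2 ratio -0.70, -1.28 to -0.11). Ncor1, a nuclear corepressor, was higher (37 and 122 UMIs, 0.61, 0.06 to 1.18). Tle1 and Snw1 stayed lower without cluster 9, at -1.44 and -0.79. The complex thus had genes on both sides, around a median of 0.14.

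Hey1 and Hes1 are transcriptional repressors that cleaved Notch switches on, Hey1 mainly in arteries and Hes1 in many cell types and under other signals too. Hey1 (chromosome 3, 8663359 to 8667256, minus strand) had 46 and 80 UMIs, or 134 CPM (97.9 to 178) in Normoxia and 107 CPM (85.1 to 134) in Hypoxia. Hes1 (chromosome 16, 30064384 to 30067796, plus strand) had 88 and 201 UMIs, or 256 CPM (205 to 315) and 270 CPM (234 to 310). The log2 ratios were -0.32 (-0.86 to 0.24) for Hey1 and 0.08 (-0.29 to 0.45) for Hes1. Over the whole class neither target differed beyond counting error.

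The values differed between clusters for both genes, a difference that was not tested. In cluster 4, where the Normoxia level of Hey1 was highest at 311 CPM (33 UMIs), the Hypoxia level was 140.5 CPM (18 UMIs), a log2 ratio of -1.15 (-2.06 to -0.28). In cluster 1 Hey1 stood at 136 and 116 CPM (12 and 51 UMIs, -0.22, -1.15 to 0.82). The aerocyte-like cluster 8 had 0 and 1 Hey1 UMIs, where a count of 0 allows up to 50.5 CPM. In cluster 9 there were 1 and 10 Hey1 UMIs, and the log2 ratio of the class without cluster 9 was -0.72 (-1.28 to -0.14). Over the class, the Hey1 interval thus left out 0 when cluster 9 was left out, and with it the interval included 0.

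Hes1 in cluster 1 stood at 362 and 278 CPM (32 and 122 UMIs) and in cluster 4 at 236 and 250 CPM (25 and 32 UMIs). In cluster 8 it was lower in the Hypoxia library, at 370 and 145 CPM (22 and 12 UMIs, log2 ratio -1.35, -2.50 to -0.27). In cluster 9 it was higher, at 99.7 and 362 CPM (9 and 35 UMIs, 1.86, 0.77 to 3.10), and the class without cluster 9 stood at -0.28 (-0.68 to 0.12). Hes1 was also common outside the endothelium, and the class held 54.0% of its Normoxia and 77.6% of its Hypoxia UMIs. B cell-like cells held 11 and 16 Hes1 UMIs and fibroblast-like cells 19 and 14. The expected share of T, NK and B cell-like cells with Hes1 after thinning was 6.02% and 5.12%, against 22.3% and 23.8% of endothelial cell-like cells, of which 43.4% and 45.8% had Hes1 before thinning.

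The other Notch targets were mostly too low to compare, and 4 of 12 reached 20 UMIs. Nrarp, a Notch target whose product feeds back on the Notch complex, had 35 and 34 UMIs, or 102 and 45.6 CPM (log2 ratio -1.16, -1.88 to -0.43). As with Dll4, its level was lower in the Hypoxia library in both general capillary clusters, with 12 and 21 UMIs in cluster 1 (-1.50, -2.59 to -0.35) and 12 and 3 in cluster 4 (-2.27, -4.74 to -0.38). In cluster 9 Nrarp had 10 UMIs in each library, and in cluster 8, 1 and 0. Ccnd1, Hes6 and Gata2 lay within 1.5-fold, and Hey2, Heyl, Hes5, Hes7, Myc, Dtx1, Notch3 and Snai2 did not reach 20 UMIs.

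**Figure D3:**
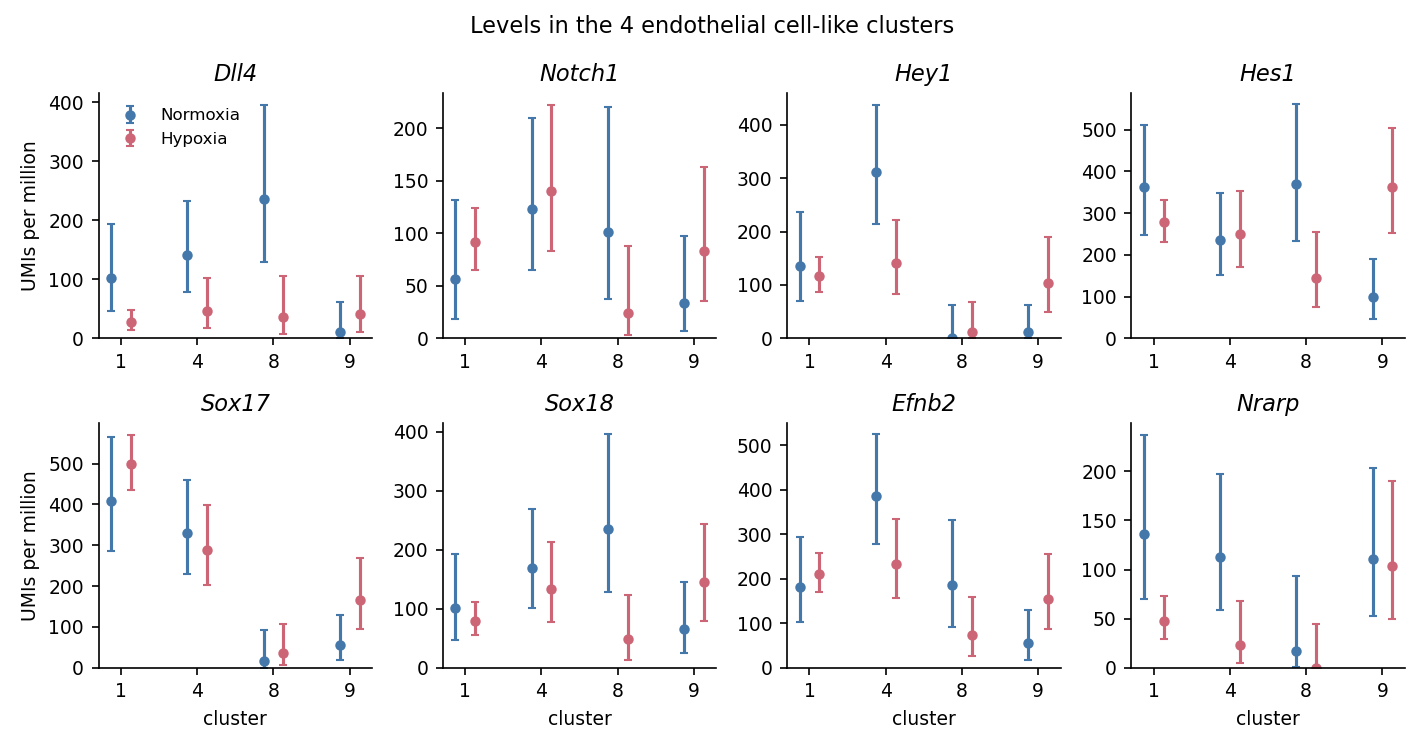
Level in CPM of 7 members and of the Notch target Nrarp in endothelial cell-like clusters 1 and 4 (general capillary markers), 8 (aerocyte markers) and 9, for the Normoxia (blue) and Hypoxia (red) libraries, with 95% Poisson intervals as bars and vertical scales that differ between genes. Dll4 is lower in Hypoxia in clusters 1, 4 and 8, Sox17 is near 0 in cluster 8 of both libraries, and Hes1 is at 370 and 145 in cluster 8 but 99.7 and 362 in cluster 9.

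Sox17 and Sox18 are SOXF transcription factors of the endothelium, Sox17 with an arterial bias and Sox18 shared with lymphatic vessels. Sox17 lies on chromosome 1 (4490931 to 4497354, minus strand) and Sox18 on chromosome 2 (181669836 to 181671640, minus strand). Sox17 had 77 and 275 UMIs, or 224 CPM (177 to 280) in Normoxia and 369 CPM (327 to 415) in Hypoxia. It was 1.65-fold higher in the Hypoxia library (log2 ratio 0.72, 0.35 to 1.10), the only member past 1.5-fold upwards over the whole class. The endothelial class held 100% of its Normoxia and 98.6% of its Hypoxia UMIs, which makes it the member most particular to these cells in Normoxia together with Gja5.

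This Sox17 difference was smaller in clusters 1 and 4. Cluster 1, which had the highest Sox17 level in both libraries, gave 36 UMIs in 39 Normoxia cells and 219 in 135 Hypoxia cells, or 407 CPM (285 to 564) and 500 CPM (436 to 571). The log2 ratio there was 0.29 (-0.22 to 0.85), and in cluster 4 it was -0.19 (-0.90 to 0.52), from 35 and 37 UMIs. Cluster 8 had 1 and 3 Sox17 UMIs (1.11, -2.53 to 6.82) and cluster 9 had 5 and 16 (1.58, 0.06 to 3.38). Cluster 1 held 39 of 113 Normoxia and 135 of 212 Hypoxia endothelial cell-like cells, and with each cluster given equal weight the log2 ratio was 0.29. Without cluster 9 it was 0.49 (0.11 to 0.89), under the 1.5-fold mark. The higher Sox17 level of the class thus went with a larger share of cluster 1 cells, and a change in cell makeup and a change in level cannot be told apart over the pooled class.

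The cells with Sox17 were 40.7% and 58.0% of the class before thinning. After thinning to 1000 UMIs they were 21.3% (23 of 108) and 28.9% (59 of 204), a difference of 7.63 points with an interval from -2.77 to 17.0 that includes 0, and 8.57 points were expected over all draws. Cells with 2 or more UMIs of Sox17 numbered 22 in Normoxia and 67 in Hypoxia, and the highest count in a cell was 6 and 15. Sox17 was found in 0 of 44 and 0 of 129 thinned T, NK and B cell-like cells, with the limits given for Dll4.

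Sox18 had 47 and 70 UMIs, or 137 CPM (100 to 182) and 93.9 CPM (73.2 to 119), a log2 ratio of -0.54 (-1.09 to 0.02). In the aerocyte-like cluster 8 it had 14 UMIs in 19 Normoxia and 4 in 20 Hypoxia cells (236 and 48.5 CPM, log2 ratio -2.28, -4.34 to -0.61). In clusters 1 and 4 the log2 ratios were -0.35 and -0.36, with intervals that include 0. Without cluster 9 the class value was -0.90 (-1.51 to -0.29). Over the whole class the Sox18 ratio thus lay below 0 and the Sox17 ratio above it, though the Sox18 interval included 0. In cluster 4 both ratios lay below 0, with intervals that include 0. Sox7, the other SOXF gene, lay within 1.5-fold, with 25 and 59 UMIs (72.7 and 79.1 CPM). Within these 3 genes Sox17 made up 51.7% of 149 Normoxia UMIs (43.4% to 59.9%) and 68.1% of 404 Hypoxia UMIs (63.3% to 72.6%). In cluster 4 the Sox17 share was 59.3% and 59.7%, and in cluster 1 63.2% and 74.2%.

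Among 13 further SOXF, ETS and related vascular factors, 8 reached 20 UMIs, 2 of them higher and 0 lower, with a median of 0.27. Mef2c, a vascular MADS-box factor, was higher (43 and 141 UMIs, log2 ratio 0.60, 0.10 to 1.13), and Foxo1, a regulator of endothelial quiescence, had 16 and 55 UMIs (0.67, -0.16 to 1.57), or 0.26 without cluster 9. The ETS factor genes Ets1, Ets2, Elk3 and Fli1 lay within 1.5-fold, at 0.20, -0.13, -0.09 and 0.53. Erg, Etv2, Etv6, Foxc1 and Foxc2 did not reach 20 UMIs.

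Efnb2 encodes ephrin-B2, the arterial ligand of the venous receptor EphB4 (chromosome 8, 8617434 to 8661242, minus strand). It had 73 and 143 UMIs, or 212 CPM (166 to 267) in Normoxia and 192 CPM (162 to 226) in Hypoxia, and the log2 ratio was -0.15 (-0.56 to 0.28), or -0.44 (-0.88 to 0.0046) without cluster 9. In cluster 4 it stood at 387 and 234 CPM (41 and 30 UMIs, -0.72, -1.45 to -0.01), in cluster 1 at 181 and 210 CPM (16 and 92 UMIs, 0.21, -0.56 to 1.08). Efnb2 was present in 33.6% and 40.6% of cells, and expected in 18.6% and 17.6% after thinning to 1000 UMIs. Over the class Efnb2 did not differ beyond counting error.

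Efnb2 was also found at a like level outside the endothelium. Cluster 7, which stayed unnamed, held 35 Efnb2 UMIs in 20 of its 45 Normoxia cells (247 CPM), a level near that of the Normoxia endothelial class. Its 6 Hypoxia cells had 0, which allows up to 178 CPM against a Normoxia interval of 172 to 343 CPM. The Normoxia cells of this cluster carried 24 Hes1 UMIs, 3 of Jag1, 2 of Notch1, 1 of Notch4, and 0 of Dll4, Hey1, Sox17, Sox18 and Gja5, where 0 allows up to 21.1 CPM. The Efnb2 partner gene Ephb4 had 47 and 135 UMIs in endothelial cell-like cells (log2 ratio 0.41, -0.08 to 0.92). Of 11 further ephrins and Eph receptors 5 reached 20 UMIs, 2 higher and 1 lower. Those with intervals that left out 0 were Epha4 (14 and 76 UMIs, 1.32, 0.49 to 2.26) and Efna1 (46 and 61 UMIs, -0.71, -1.28 to -0.12), an Eph receptor and an ephrin ligand.

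Gja5 encodes connexin 40, a gap junction protein of arterial endothelium (chromosome 3, 96904693 to 97077416, plus strand). It had 4 UMIs in 3 of 113 Normoxia cells and 8 in 6 of 212 Hypoxia cells, or 11.6 CPM (3.17 to 29.8) and 10.7 CPM (4.63 to 21.1). The log2 ratio of -0.12 has an interval from -2.02 to 2.07, so a difference of either sign could not be seen with these counts. Without cluster 9 it had 4 UMIs in each library (-1.35, -3.78 to 1.07). The 9 endothelial cell-like cells with Gja5 held Gja4 in 7, Sox17 in 6, Hey1 in 5, Efnb2 in 5 and Dll4 in 3. In the 316 without Gja5, Sox17 was found in 51.6%, Efnb2 in 37.7%, Hey1 in 23.7% and Dll4 in 13.9%. After thinning to 1000 UMIs only 4 cells with Gja5 remained, with Sox17 in 0 and Dll4 in 1 of them. The other 3 cells with Gja5, all from Hypoxia, lay in the fibroblast-like cluster 5, with 1 Gja5 UMI each, 61 to 575 UMIs of Mgp and 0 of Cdh5.

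Gja4, which encodes connexin 37, the second arterial connexin, was much more abundant and differed where Gja5 could not be read. Its 53 Normoxia and 262 Hypoxia UMIs gave 154 and 351 CPM (log2 ratio 1.19, 0.76 to 1.64), and 0.86 without cluster 9. In cluster 1 Gja4 stood at 340 and 418 CPM (0.30, -0.26 to 0.91), in cluster 4 at 189 and 382 CPM (1.02, 0.24 to 1.85). As for Sox17, cluster 1 made up more of the Hypoxia class, so cell makeup and level cannot be told apart over the pooled class. Cluster 8 had 0 Gja4 UMIs in both libraries, as it had for Jag1 and Gja5. Of 5 connexin and pannexin genes listed, 2 reached 20 UMIs, both higher. The other was Gjc1, encoding connexin 45 (5 and 41 UMIs, 1.92, 0.58 to 3.62).

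**Figure D4:**
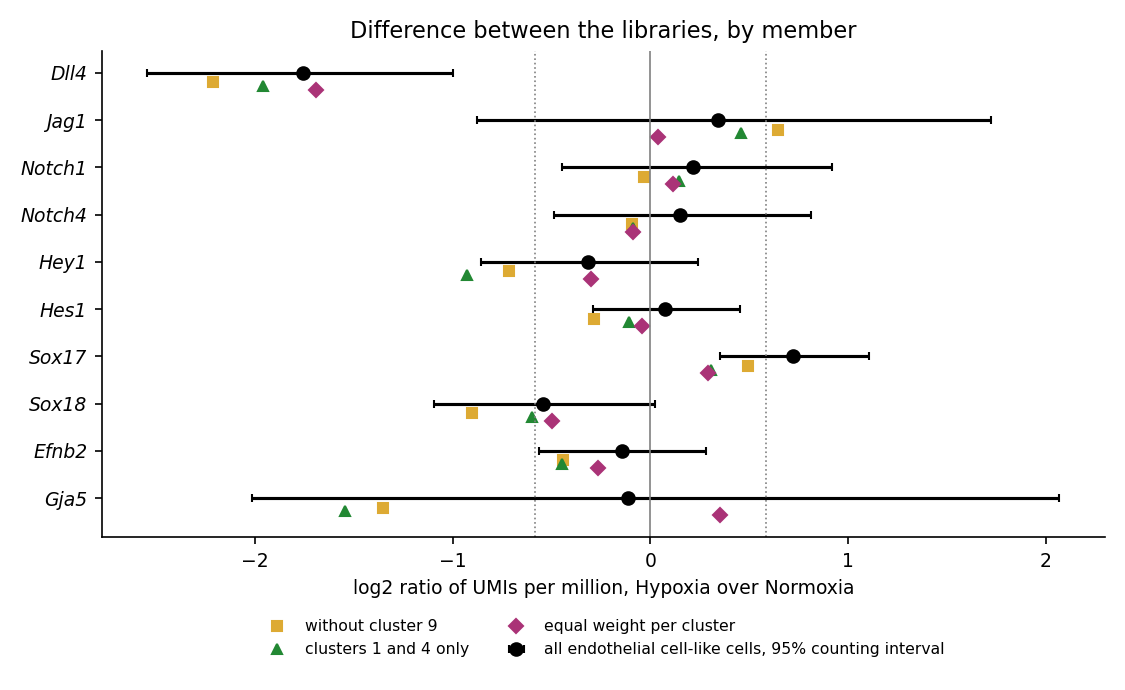
Log2 ratio of the level in Hypoxia over Normoxia for each member in all endothelial cell-like cells (black, bars are 95% counting intervals), without cluster 9 (squares), in clusters 1 and 4 only (triangles) and with equal weight per cluster (diamonds); dotted lines mark 1.5-fold. Dll4 lies below -1.6 in all 4, Sox17 lies at 0.72, 0.49, 0.31 and 0.29, and the Gja5 interval runs from -2.02 to 2.07.

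The order of the members by level differed in part between the libraries. UMIs of a 3′ method count transcript ends, so transcript length does not enter these CPM values. In Normoxia the order ran Hes1, Sox17, Efnb2, Sox18, Hey1, Dll4, Notch4, Notch1, Jag1, Gja5. Neighbours in it differed beyond counting error only between Efnb2 and Sox18 (ratio 1.55, 1.06 to 2.29) and between Notch1 and Jag1 (3.38, 1.49 to 8.60). In Hypoxia the order ran Sox17, Hes1, Efnb2, Hey1, Notch4, Sox18, Notch1, Dll4, Jag1, Gja5. Neighbours differed between Sox17 and Hes1, Hes1 and Efnb2, Efnb2 and Hey1, Notch1 and Dll4, and Jag1 and Gja5. Dll4 stood sixth, within counting error of Hey1 and Notch4, in Normoxia, and eighth, below Notch1 (ratio 2.72, 1.70 to 4.49), in Hypoxia.

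Most cells held few members, and none held all 10. The median Normoxia endothelial cell-like cell had a UMI of 3 members and the median Hypoxia cell of 2, with at most 6 and 8, and 14 and 17 cells had none. In T, NK and B cell-like cells the median was 0, and 36 of 44 and 104 of 130 had none. After thinning to 1000 UMIs, in the draw used here, the mean number of members per cell was 1.19 and 1.15. In cluster 8 this mean was 1.05 in Normoxia and 0.40 in Hypoxia, in cluster 4 it was 1.49 and 1.34, in cluster 1 it was 1.36 and 1.26, and in cluster 9 it was 0.39 and 0.82.

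Some of the pairs of members counted in the same cells are given here, in the draw at 1000 UMIs per cell and with both libraries counted together. Efnb2 was present in 10 of 23 cells with Dll4 (43.5%, 23.2% to 65.5%) and in 38 of 289 without it (13.1%, 9.48% to 17.6%). By library this was 6 of 15 against 10 of 93 in Normoxia and 4 of 8 against 28 of 196 in Hypoxia. Efnb2 was likewise present in 17 of 60 cells with the arterial genes Gja4 or Bmx (28.3%) and in 31 of 252 without them (12.3%), or 3 of 9 against 13 of 99 in Normoxia and 14 of 51 against 18 of 153 in Hypoxia. In this draw Dll4 was present in 3 of 23 cells with Sox17 against 12 of 85 without it in Normoxia. In Hypoxia it was present in 0 of 59 against 8 of 145, where 0 of 59 has an exact upper limit of 6.06%. The 2 genes did occur together before thinning. Sox17 was then found in 7 of 28 cells with Dll4 and 39 of 85 without it in Normoxia, and in 7 of 19 and 116 of 193 in Hypoxia. Sox18 was present in 0 of 15 cells with Dll4 against 13 of 93 without it in Normoxia, and in 0 of 8 against 18 of 196 in Hypoxia. Before thinning it was present in 13 of 28 against 19 of 85, and in 6 of 19 against 44 of 193. These are descriptions over cells of 2 libraries, which share their libraries and free RNA, and no test was made of them. The cells were pooled over clusters that differ in the levels of these genes.

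The wider arterial list set the members beside other genes, which were chosen, like the members, with earlier results of these data known. Of 18 genes, 16 reached 20 UMIs, 6 were higher and 1 lower, with a median log2 ratio of 0.42. Without cluster 9 the counts were 4 and 1 of 13, with a median of 0.15. The chemokine gene Cxcl12 had 167 and 856 UMIs, or 485 and 1148 CPM (log2 ratio 1.24, 1.00 to 1.49), and 1.14 without cluster 9. Eln, encoding elastin, and Ltbp4, a matrix binder of TGF-beta, were higher at 1.08 and 0.71. Without cluster 9 Eln was at 0.34 and Ltbp4 at 1.35 (-0.18 to 3.33). Cytl1, a secreted arterial protein gene, was higher over the whole class, at 2.16 (9 and 87 UMIs). Htra1, a secreted protease gene, was lower at -2.12 (18 and 9 UMIs). The Cytl1 UMIs lay in 2 Normoxia and 10 Hypoxia cells. Of the 87 Cytl1 Hypoxia UMIs, 10 lay outside cluster 9, and the Normoxia Htra1 count outside it was 2.

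Of 12 venous identity genes, 10 reached 20 UMIs, 4 higher and 1 lower, with a median of 0.36, and without cluster 9 there were 2 higher and 0 lower of 8. Vwf, encoding von Willebrand factor, had 44 and 289 UMIs (log2 ratio 1.60, 1.14 to 2.09) and was at 1.12 without cluster 9. Vegfc, a lymphangiogenic growth factor gene, had 19 and 118 UMIs (1.52, 0.81 to 2.30) and was at 1.31 without it. Car8, a carbonic anhydrase relative, was at 1.43, and without cluster 9 its 2 and 16 UMIs did not reach 20. Vcam1, a leukocyte adhesion gene, was at -2.30 (91 and 40 UMIs, in 3 and 8 cells), with all but 2 and 1 of the UMIs in cluster 9. Over the whole class the arterial and venous lists thus both had more genes higher than lower, while 1 member was higher and 1 lower. Among all genes 15.9% were higher and 13.5% lower. Without cluster 9, 1 of 9 members was higher and 3 were lower, beside 15.1% and 14.5% of all genes.

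**Figure D5:**
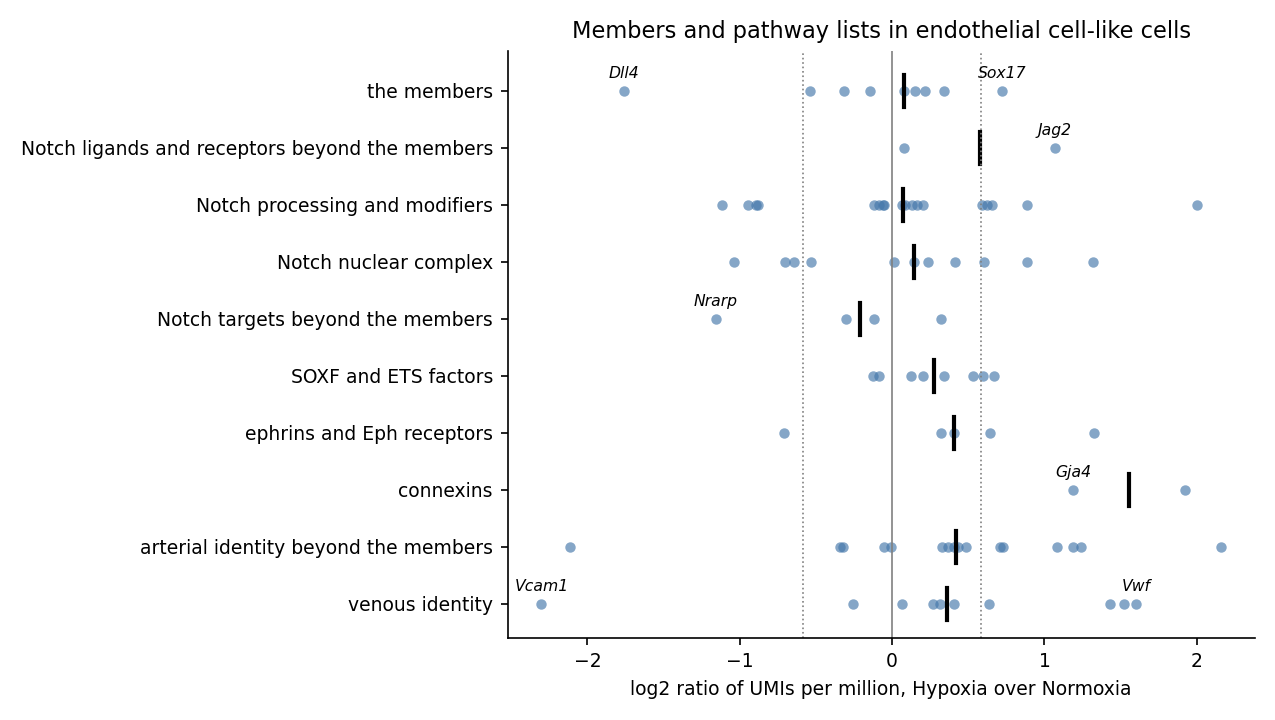
Log2 ratio of the level in Hypoxia over Normoxia in endothelial cell-like cells for each gene with at least 20 UMIs (points), by list, with the median of each list as a vertical bar and dotted lines at 1.5-fold. The 9 members run from -1.76 (Dll4) to 0.72 (Sox17) around a median of 0.08, and the medians of the arterial and venous lists lie at 0.42 and 0.36.

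Genes whose pattern was most like the members were sought by Pearson r of log2(CPM + 10) over 13 points, each a class or unnamed cluster of at least 10 cells in a library. Only 2 of the points were endothelial cell-like, so a high r mainly says that a gene was high there and low elsewhere, and these values are descriptions. Closest to the sum of the 10 members were Aldoa and Hilpda (r = 0.94 each), Ppp1r2 (0.92), Cav1 (0.90) and Sod1 (0.90). For single members with at least 100 UMIs the closest were Adgrl4, Aplnr and Scgb3a2 for Sox17 (0.99 to 1.00), Tnnt2, Wfdc2 and Mmrn2 for Hey1 (0.98), and Stmn2, Mcc and Sema3f for Sox18 (0.97 to 0.98). Myzap, Cdh5 and Slco2a1 were closest to Notch4 (0.96 to 0.97), and Tinagl1, Nkd1 and Nes to Efnb2 (0.94 to 0.95). The values were lower for Notch1 (Snrk, Numb and Sgk1, 0.88 to 0.89) and Hes1 (Btbd7, Myo1c and Stk11, 0.85 to 0.90). Both had UMIs in all the other classes and clusters. The class points pool the cluster led by Scgb1a1 with the other endothelial cell-like clusters. Its part in these matches was not tested. With each cluster of at least 10 cells per library as its own point (20 points), other genes were closest to Sox17 and Hey1. They were Palmd, Gpihbp1 and Acer2 for Sox17 (0.96 to 0.98) and Sema3g, Edn1 and Tmem44 for Hey1 (0.94 to 0.96). Stmn2 for Sox18 and Btbd7 for Hes1 stayed among the closest.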

How the data were processed

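Single-cell libraries were made with the Chromium Single Cell 3′ chemistry. For each group the authors deposited 1 matrix of UMI counts, not normalized, made with Cell Ranger 3.1.0 per the file headers, and the methods of the study name STAR and mm10. Barcodes with 200 to 6000 genes and at most 5% mitochondrial UMIs were kept with scanpy 1.11.5, scaled to 10000 and log-transformed. They were clustered on 2000 variable genes, 15 components and 15 neighbours at Leiden resolution 1 into 13 clusters, with 125 genes, all members among them, held out. A class needed at least 3 of its markers, each in at least 25% of cells and 2-fold over the median cluster. This naming rule, and counting markers of endothelial subtypes among the leading genes for the endothelial class, were set after the clusters had been seen. The members and lists were chosen with earlier results of these data known.

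Within endothelial cell-like cells UMIs were summed per library. CPM had exact Poisson intervals, log2 ratios exact conditional binomial intervals, shares Clopper-Pearson intervals and differences of shares Newcombe intervals (scipy 1.17.1, numpy 2.4.6), all at 95% and for counting error only. A count of 0 allows 3 counts. With 1 library per group no test was possible and no p-value is given. The code was tested on simulated data. All members were named. Of each list the genes with at least 20 UMIs, past 1.5-fold and with an interval that left out 0 were named, at most 6 by size of the log2 ratio, and so were the 5 genes most like the summed members and the 3 most like each member with at least 100 UMIs. Other genes named for context were chosen after their values were seen. Doublets were called with Scrublet, which marked 1 Normoxia and 2 Hypoxia cells, and were kept. Gene coordinates are those of GENCODE M21 on GRCm38. Figures were drawn with matplotlib 3.10.9.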

Additional observations from a re-analysis of the deposited data

Results flagged for a closer look

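Hes1 and Hey1 were singled out because their ratios lay on opposite sides in different endothelial cell-like clusters. The log2 ratio of Hypoxia over Normoxia for Hes1 was 1.86 in cluster 9 and -1.35 in the aerocyte-like cluster 8. For Hey1 it was 3.22 in cluster 9, from 1 and 10 UMIs, and -1.15 in cluster 4. No test was made between clusters. In cluster 9 the summed endothelial markers were also higher in the Hypoxia library, at 3667 and 6764 CPM, and the part of that difference in these values was not tested.

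Barcodes that the filters left out also held UMIs of the 10 members, 48 in the 80 Normoxia barcodes and 164 in the 160 Hypoxia barcodes. They were used in no comparison.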

How the results depend on the processing

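The log2 ratio of Dll4 stayed negative in all 21 alternatives (-2.21 to -1.62) and that of Sox17 positive in all 21 (0.29 to 0.77), with 0.31 in clusters 1 and 4 only and 0.29 with equal weight per cluster. Sox18 (-0.90 to -0.46) and Efnb2 (-0.44 to -0.06) also kept their sign in all 21, Notch1 and Hey1 in 20, Gja5 in 19, Jag1 in 18, Notch4 in 15 and Hes1 in 9. The count of members at least 1.5-fold higher, 1 in the report, was 0 with a mitochondrial maximum of 10%, with cells chosen one by one by their markers, with equal weight per cell, with a fold of 2, in clusters 1 and 4 only and with equal weight per cluster, and 2 with no mitochondrial maximum. The count of members lower, also 1, was 2 with a mitochondrial maximum of 10% or none, 1000 variable genes, 10 or 30 components, cells chosen one by one, equal weight per cell, or without the cell richest in each gene. It was 3 without cluster 9 and in clusters 1 and 4 only. The cause of these changes was not tested. Leaving out cluster 9, using clusters 1 and 4 only, weighting clusters equally, leaving out shared barcodes, adding cluster 13 and the expected thinned shares were chosen after seeing the data. No paired analysis was possible because each group had 1 library. Depth limits Gja5 and Jag1 most, with 12 and 30 UMIs in all.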
